A study of Ovis aries with 16 samples.

Results

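The average difference that ketamine made to the hypothalamic transcriptome of late-gestation fetal sheep was measured over both oxygen levels together, with the difference due to hypoxia taken out. All 16 of the 16 arrays of the series entered the comparison. The arm given ketamine held 8 arrays, 4 from fetuses kept in normoxia (NK) and 4 from fetuses made hypoxic (HK). The arm without ketamine also held 8 arrays, 3 from normoxia (NC) and 5 from hypoxia (HC), and its fetuses were injected with saline in place of ketamine, which was given intravenously before the stimulus. Each array held total RNA of the hypothalamus of 1 catheterized fetus, collected 24 h after the start of a 30 min stimulus, either normoxia or hypoxia produced with nitrogen passed into the ewe's trachea, and thus after 23.5 h of recovery. All fetuses carried catheters in place from earlier surgery. The study's methods state that most fetuses were twins and that the oxygen level was assigned by pregnancy, and which fetuses shared a ewe is not given in the sources used here. The p-values therefore measure the spread between these fetuses as if each were independent.

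The arrays were Agilent 1-color sheep arrays of 60-base probes, laid out 8 to a slide, and each of the 2 slides held arrays of all 4 groups. A level is the log2 signal of a probe minus the 75th percentile of its own array, and a difference is ketamine minus none on that log2 scale, from 1 fit with hypoxia and slide as the other terms. Of 15008 probes, 12250 gave a signal well above background on at least 3 arrays and were tested, 1315 of them with a gene name (859 names). The 75th percentile of intensity ran from 1238 to 1596 across the 16 arrays, and the share of probes detected above background ran from 71.8% to 80.6%. Of the hypothalamic peptide genes, 13 were tested, and oxytocin (OXT), somatostatin (SST), proopiomelanocortin (POMC), neuropeptide Y (NPY) and tachykinin (TAC1) were well above background on all 16 arrays. In bulk tissue, fewer cells of a type and less RNA per cell cannot be told apart.

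Ketamine is a dissociative anesthetic that enters and blocks the open channel of the NMDA receptor, the glutamate receptor that admits calcium into neurons. Glutamate released in excess during oxygen shortage overstimulates that receptor, and ketamine has also been studied for its effects on macrophages and cytokines. The hypothalamus holds the neurosecretory neurons that direct pituitary, appetite and fluid balance, together with astrocytes, microglia and a dense vascular bed.

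Few probes differed between the arms, and none did so after adjustment for the number tested. By limma's moderated test 389 probes passed an unadjusted p of 0.05, which is 3.18% of those tested and below the 5% that chance gives (612.5 probes). Such probes are referred to as called, and rose and fell are used of called probes alone. Of these, 284 were higher with ketamine (2.32% of those tested) and 105 were lower (0.857%), so that 73% of calls were higher. When the array median was subtracted in place of the 75th percentile, 62.0% were higher. No probe passed an adjusted p of 0.05, with a smallest adjusted p of 0.984. At p under 0.01 the count was 38 (0.31%). The hypoxia term of the same fit called 1743 probes (14.2%), and none of those passed adjustment either (smallest adjusted p = 0.102). Over all tested probes the absolute difference had a median of 0.0768 for ketamine and 0.114 for hypoxia. The SE of the ketamine difference had a median of 0.111, so that the 95% interval of a typical probe reached 0.239 to either side. Ketamine accounted for 4.94% of the variance of the tested probes, hypoxia for 11.2% and slide for 20.1%. Any split of the arrays takes some share of the variance by chance. The share taken by arbitrary labels was not computed, so the 4.94% is not evidence of a ketamine effect.

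**Figure D1:**
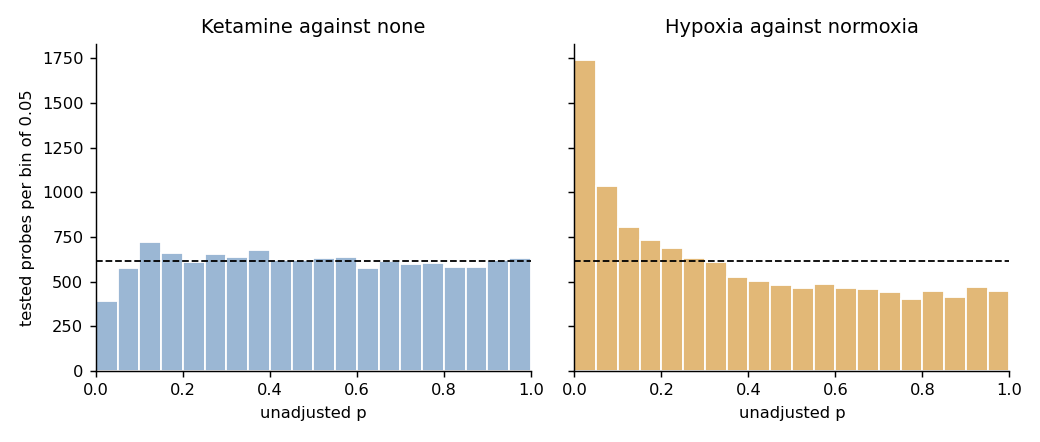
Number of tested probes in each bin of 0.05 of unadjusted p (limma, 16 arrays), for ketamine against none on the left and hypoxia against normoxia on the right, with a dashed line at the 612.5 probes per bin of a flat distribution. The first bin holds 389 probes for ketamine, below the line, and 1743 for hypoxia, above it.

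Among named genes, 36 were called, 23 higher and 14 lower, MYOD1 being counted in both directions. Those with the largest rises on probes detected above background on all 16 arrays were SLC7A5, CRYAA, EDNRB, I-MF and NPY1R. SLC7A5 encodes LAT1, the carrier that takes large neutral amino acids across the blood-brain barrier. Its level without ketamine had a lowest value of -3.98, a median of -3.26 and a highest value of -3.04, and with ketamine the corresponding values were -3.16, -2.95 and -2.61. All 8 ketamine arrays lay above the median of the arrays without ketamine, although the arms overlapped. The difference was 0.40 ± 0.12 (SE; limma p = 0.0060, exact permutation p = 0.0037), with 0.24 in normoxia and 0.52 in hypoxia. SLC7A5 remained called when any 1 of the 16 arrays was left out (0.31 to 0.45).

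CRYAA, the small heat shock protein αA-crystallin, ran from -3.21 to -2.78 without ketamine (median -3.03) and from -3.04 to -2.30 with it (median -2.46). Of the ketamine arrays, 7 of 8 were above the median of the other arm. The difference was 0.38 ± 0.13 (SE; limma p = 0.0085, exact permutation p = 0.013), with 0.40 in normoxia and 0.37 in hypoxia, and it too remained called when any 1 array was left out (0.33 to 0.46).

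EDNRB, the endothelin type B receptor, ranged from -3.11 to -2.10 without ketamine (median -2.61) and from -2.84 to -1.82 with it (median -2.04). The difference was 0.44 ± 0.18 (SE; limma p = 0.032, exact permutation p = 0.022), and 7 of 8 ketamine arrays exceeded the other arm's median. A second EDNRB probe gave 0.28 ± 0.16 and was not called. I-MF, the inhibitor of the MyoD family, ranged from -2.55 to -1.50 without ketamine (median -2.10) and from -2.33 to -1.08 with it (median -1.61), a difference of 0.46 ± 0.19 (SE; limma p = 0.025, exact permutation p = 0.033). For NPY1R, the Y1 receptor of neuropeptide Y, the medians were -4.33 and -3.96 and the difference was 0.45 ± 0.19 (SE; limma p = 0.038, exact permutation p = 0.051). The call of I-MF was lost without HK3 or HK4 (0.39 and 0.40). That of EDNRB was lost without any 1 of NC3, NK1, HC1, HC2, HC4, HK2, HK3 and HK4 (0.37 to 0.41), and that of NPY1R without any 1 of NC2, NC3, NK1, NK2, HC1, HC3, HC4, HK3 and HK4 (0.35 to 0.43).

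Of the 12 named probes with the largest falls, those above background on all 16 arrays were of MYC, SFTPC, EIF4GI, SLC25A37, ACSS2 and PUS1, with differences of 0.23 to 0.44 in size. MYC, the growth-related transcription factor, ran from -1.13 to -0.13 without ketamine (mean -0.63) and from -1.16 to -0.56 with it (mean -0.95). The difference was -0.30 ± 0.13 (SE; limma p = 0.044, exact permutation p = 0.044), and a second MYC probe gave -0.25 without being called. SFTPC, named for surfactant protein C, had medians of 1.31 and 1.11 and a difference of -0.27 ± 0.11 (SE; limma p = 0.027, exact permutation p = 0.045). Its second probe gave -0.24 ± 0.11 and was called lower too. The surfactant genes were listed as foreign to this tissue, and what the SFTPC probes measured in hypothalamus was not tested.

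EIF4GI, the scaffold of the translation initiation complex, differed by -0.44 ± 0.19 (SE), SLC25A37, the mitochondrial iron carrier mitoferrin, by -0.29 ± 0.13, ACSS2, which makes acetyl-CoA from acetate, by -0.23 ± 0.10 and PUS1, a pseudouridine synthase, by -0.23 ± 0.10. A second, dimmer ACSS2 probe, above background on all 8 arrays of each arm, gave 0.07 ± 0.17 (SE) and was not called. It gave 0.40 in normoxia and -0.19 in hypoxia. On the called probes of these 4 genes the difference was larger in size among the hypoxic arrays. The values there were -0.83, -0.55, -0.43 and -0.38, against 0.08, 0.04, 0.04 and -0.02 in normoxia. The difference between oxygen levels passed an unadjusted p of 0.05 in EIF4GI, SLC25A37 and ACSS2 but not in PUS1, and none passed adjustment (limma adjusted p = 0.966). Exact permutation gave p = 0.054 for EIF4GI, 0.069 for SLC25A37, 0.053 for ACSS2 and 0.054 for PUS1. Leaving out 1 array ended the call for 7 choices of array in EIF4GI and ACSS2 and for 10 in SLC25A37 and PUS1, the arrays HC4, HC5, HK3 and HK4 among them in each. For MYC 9 choices ended the call (NC1, NC3, NK1, HC1, HC2, HC4, HK2, HK3 or HK4; -0.32 to -0.22) and for SFTPC 6 (NC2, NC3, NK1, NK4, HC1 or HK1; -0.26 to -0.22).

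**Figure D2:**
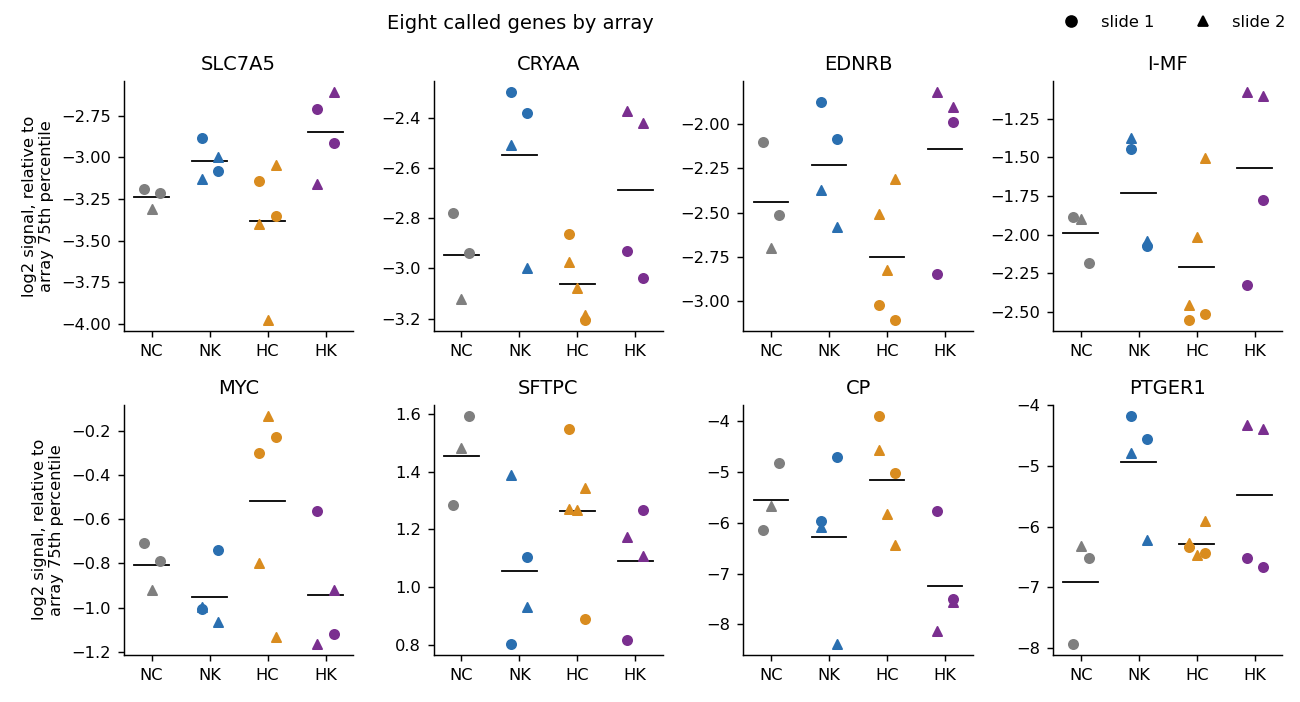
Level of 8 called genes on each array (log2 signal minus the 75th percentile of that array), with 3 arrays of NC, 4 of NK, 5 of HC and 4 of HK. Circles are slide 1, triangles slide 2 and lines group means. SLC7A5 and CRYAA are higher on average in NK than NC and in HK than HC, the arms overlap in every panel, and CP and PTGER1 spread over more than 3 log2 units.

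Among named probes the largest differences in either direction were on dim ones. Of the 24 probes named by the rule, 12 in each direction, 11 were well above background on all 16 arrays and 13 were not. Over all calls 72.2% were above background on all 16 arrays, against 81.9% of the tested probes. CP, ceruloplasmin, the copper-carrying ferroxidase of plasma and astrocytes, had the largest fall among them, at -1.48 ± 0.48 (SE; limma p = 0.0077, exact permutation p = 0.018). Its level ran from -6.45 to -3.91 without ketamine (median -5.35) and from -8.37 to -4.72 with it (median -6.79), and it was well above background on 6 of 8 arrays without ketamine but on 1 of 8 with it. A dim probe of PTGS2, cyclooxygenase-2, differed by -1.43 ± 0.53 (SE; limma p = 0.017, exact permutation p = 0.031) and was above background on 5 arrays without ketamine and 1 with it. SERPINA1, α1-antitrypsin, differed by -0.82 ± 0.33 (SE) and was well above background on 3 arrays without ketamine and on 0 with it. No fold is given for SERPINA1, since its mean without ketamine did not exceed the background bound of the ketamine arrays. SERPINA1 passed the filter of 3 arrays only through the arm where it was higher. CP and the dim PTGS2 probe also reached 3 arrays in that arm alone. Such background counts are not separate support for a fall.

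Among the dim probes called higher, PTGER1, the EP1 receptor of prostaglandin E2, had the largest rise, at 1.31 ± 0.41 (SE; limma p = 0.0069, exact permutation p = 0.025). Its level ran from -7.93 to -5.91 without ketamine (median -6.39) and from -6.67 to -4.18 with it (median -4.67). On 5 ketamine arrays (NK1, NK2, NK3, HK3 and HK4) it lay between -4.79 and -4.18, and on the other 3 between -6.67 and -6.23. MMP13, a collagenase, differed by 1.00 ± 0.40 and MMP14, the membrane-type metalloproteinase that activates others, by 0.47 ± 0.19 (SE). SFTPD, the lung collectin surfactant protein D, differed by 0.89 ± 0.41 and FGFR3, a fibroblast growth factor receptor, by 0.51 ± 0.19 (SE). EP4a, a prostaglandin E2 receptor sequence, fell by 0.71 on the log2 scale on a probe above background on 1 ketamine array and 3 others. A second, brighter EP4a probe gave 0.63 ± 0.42 (SE), the opposite sign, and was not called. It was above background on 7 ketamine arrays and 6 others. PROACROSIN, the precursor of the sperm protease acrosin, fell by 0.56. LOC443313 rose by 0.63 on a probe above background on 3 of 16 arrays. The called probes of PTGER1, MMP13 and MMP14 reached 3 arrays above background in the ketamine arm alone, and that of EP4a in the other arm alone. The calls of CP, PTGER1, FGFR3, the dim PTGS2 probe and the MYOD1 probe called higher remained without any 1 array. Leaving out 1 array ended those of EP4a (without NC3), MMP14 (NC2, NC3 or HK2), MMP13 (NC3, HC1, HC2 or HK2), SERPINA1 (NC1, HC3, HK2 or HK3) and PROACROSIN (NC2, NC3, HC1 or HK1), and 10 choices of array did so for SFTPD, 11 for LOC443313 and 9 for the MYOD1 probe called lower.

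With the deposited values, 7 of the 13 dim probes were still called and their differences shrank to between 0.0518 and 0.225 in size, from 0.472 to 1.48. The 11 brighter probes kept 8 calls, at 0.0852 to 0.356 against 0.227 to 0.464. Exact permutation of the ketamine label within each oxygen level and slide (1080 arrangements, two-sided, smallest possible p 0.000926) gave p under 0.05 for 17 of the 24 probes. Since the 24 were chosen by their limma p on the same arrays, small permutation p-values were favored by construction and are not separate support.

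Several of the called genes were measured by a second probe whose sequence overlaps the first almost completely, so that the ketamine difference can be read more than once from nearly the same stretch of RNA. The pairs below are printed to show how nearly the same the sequences are, with differences of opposite sign in PTGER1 and NPY1R and of the same sign in FGFR3. Bases that only 1 probe of a pair holds are in capitals, and each is given as the array design lists it, 5′ to 3′.
PTGER1 probe called higher: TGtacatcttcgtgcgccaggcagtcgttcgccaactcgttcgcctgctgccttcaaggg
PTGER1 second probe: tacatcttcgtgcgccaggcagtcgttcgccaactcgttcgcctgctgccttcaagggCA
NPY1R probe called higher: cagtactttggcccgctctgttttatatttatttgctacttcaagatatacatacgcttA
NPY1R second probe: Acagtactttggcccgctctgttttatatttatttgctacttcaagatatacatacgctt
FGFR3 probe called higher: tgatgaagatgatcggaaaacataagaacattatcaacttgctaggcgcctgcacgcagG
FGFR3 second probe: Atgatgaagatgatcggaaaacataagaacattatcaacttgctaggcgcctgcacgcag

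The PTGER1 probes share 58 of 60 bases and gave 1.31 ± 0.41 and -0.36 ± 0.44 (SE). The PTGER1 probe called higher was above background on 6 arrays, and the second, brighter probe on 12. Those of NPY1R share 59 bases and gave 0.45 ± 0.19 and -0.25 ± 0.23. For FGFR3, which also share 59 bases, both differences were positive, at 0.51 ± 0.19 and 0.28 ± 0.16, and 1 was called. MYOD1, the muscle-determining transcription factor, was the only gene called in both directions: its probes share 59 of 60 bases, and 1 gave 0.55 ± 0.20 (exact permutation p = 0.028) while the other gave -0.59 ± 0.26 (exact permutation p = 0.062). They were above background on 9 and 13 of the 16 arrays. The second probe of I-MF, shifted by 1 base, gave 0.16 ± 0.23 and that of CRYAA gave 0.25 ± 0.12, neither being called. That of LOC443313 gave -0.31 ± 0.44 and was above background on 11 arrays, against 3 for the called probe.

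Over all tested probes 220 pairs overlapped by at least 50 of 60 bases. The 2 probes of a pair had ketamine differences of the same sign in 162 pairs (73.6%), and the differences lay a median of 0.05 apart. In the 163 pairs above background on all 16 arrays the median gap was 0.032 and 77.3% had the same sign. In the other 57 pairs the gap was 0.197 and 63.2% had the same sign. Only 1 probe was called in 9 pairs, of which 5 had the same sign in both probes, and both were called in 1 pair, MYOD1, with opposite signs. Both probes of a pair read the same RNA on the same array and are not replicates of the treatment.

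**Figure D3:**
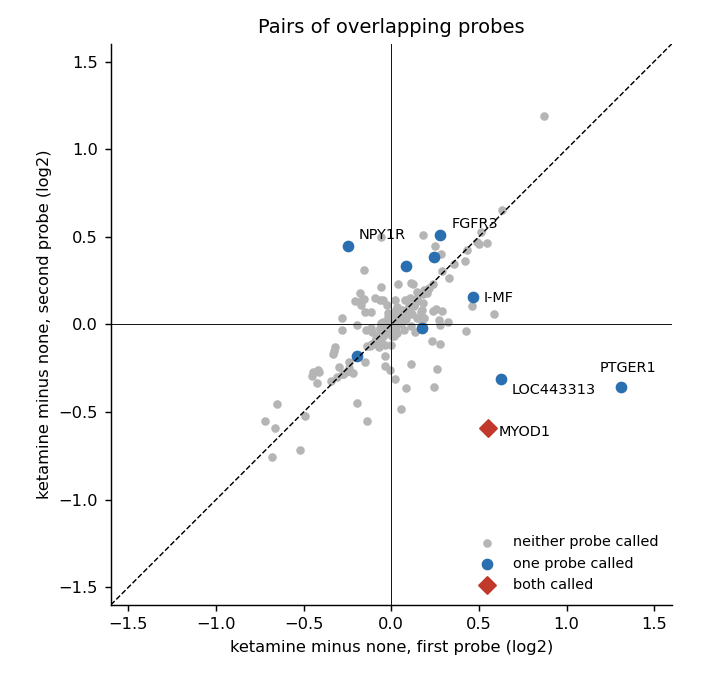
Ketamine minus none (log2) for the first against the second probe of each of 220 pairs of tested probes that share at least 50 of 60 bases, with the dashed line marking equal differences. Blue points are the 9 pairs with 1 probe called and the red diamond is MYOD1, the 1 pair with both called, which lies at 0.55 and -0.59.

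Among unnamed probes, the smallest limma p of the comparison belonged to a probe with a difference of 0.43 ± 0.09 (SE) that averaged -4.86 ± 0.14 without ketamine and -4.47 ± 0.28 with it (SD, n = 8 each). Its limma p was 0.000269 and its exact permutation p 0.000926, the smallest possible. It was picked as the smallest limma p of the 12250 probes on the same arrays, which favors a small permutation p. Only 1 probe of the 12250 (0.00816%) had arms that did not overlap. It was another unnamed probe, which averaged 0.071 ± 0.079 without ketamine and -0.059 ± 0.055 with it (SD, n = 8 each), a difference of -0.13.

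The oxygen levels did not contribute equally to the pooled calls. The difference was larger in hypoxia (HK minus HC) than in normoxia (NK minus NC) for 285 of the 389 probes, and 218 were also called between HK and HC, 49 between NK and NC and 8 in both. The share with a larger difference in hypoxia was not counted over all tested probes. A pooled call also favors the hypoxic arrays, which were more numerous than the normoxic ones. Over all tested probes, 973 (7.94%) were called between HK and HC and 177 (1.44%) between NK and NC, in a fit of the group means with slide. The sign was the same at both levels for 369 of the 389, which a pooled call favors by its construction. The test of the difference between levels called 510 of all probes (4.16%), with none after adjustment, and 30 of the 389. Among named genes, differences were nearly equal at the 2 levels for MMP13 (1.00 and 1.00), the called NPY1R probe (0.45 and 0.45) and CRYAA. The second NPY1R probe gave 0.001 in normoxia and -0.44 in hypoxia. CP differed by -2.2 in hypoxia and by -0.54 in normoxia, and SFTPD by 0.31 and 1.65, although in neither gene did the test of the difference between levels pass.

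**Figure D4:**
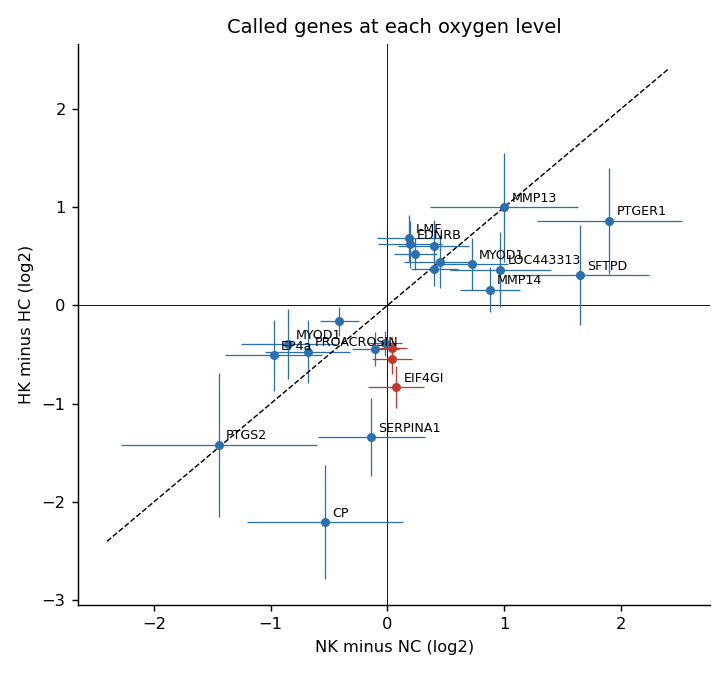
Ketamine difference in normoxia (NK minus NC, x axis, log2) against that in hypoxia (HK minus HC, y axis, log2) for the 24 called probes, with bars of 1 SE and a dashed line of equal differences. Red points are EIF4GI, SLC25A37 and ACSS2, whose differences at the 2 levels differed at an unadjusted p under 0.05.

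The slides, which were scanned separately, gave different numbers of calls when analysed alone. Slide 1 alone, with 2 arrays of each group, called 195 probes, and slide 2 alone called 679. On both, 18 probes were called, 11 of them with the same sign. Over all tested probes the sign matched between slides for 54.3%, and the share was 71.8% for the slide 1 calls and 59.6% for the slide 2 calls. The 24 named probes had the same sign on both slides, as did 387 of the 389 calls, which a pooled call favors by its construction. SLC7A5 gave 0.33 on slide 1 and 0.47 on slide 2, CRYAA 0.29 and 0.57, and EDNRB 0.49 and 0.52.

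The gene lists are described by their counts, beside a median of 0.020 and 57.9% of differences above 0 over all tested probes. Each gene is given by its brightest probe, and by that probe 24 of 859 named genes were called (2.79%). The 11 glutamate receptor and transporter genes, which hold the receptor that ketamine blocks, showed no call. The obligatory NMDA receptor subunit GRIN1 averaged -1.47 ± 0.27 without ketamine and -1.58 ± 0.27 with it (SD, n = 8 each), a difference of -0.14 with a 95% interval from -0.42 to 0.14. The AMPA receptor subunits GRIA1, GRIA2, GRIA3 and GRIA4 differed by -0.06, -0.03, -0.04 and -0.16. The uptake carriers SLC1A1, SLC1A2 and SLC1A3, which clear glutamate from the synapse, differed by -0.06, -0.03 and -0.04, and the metabotropic receptors GRM3 and GRM5 by 0.18 and 0.00. The list median was -0.044, with 9 of 11 genes below 0.

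Of the immediate early genes, which neurons switch on with activity, 6 were tested and none was called by its brightest probe, FOS at -0.35 ± 0.30 and EGR1 at 0.17 ± 0.08 (SE). MYC is among the 6, at -0.25 by its brightest probe, while its dimmer probe was called lower. The 13 hypothalamic peptides had a median of -0.023 and no call. OXT differed by -0.49 with a 95% interval from -1.58 to 0.60 and POMC by 0.51 with an interval from -0.28 to 1.31, whereas the intervals of SST (-0.45 to 0.33), TAC1 (-0.29 to 0.25) and PMCH (-0.32 to 0.09) were narrower. The 9 anterior pituitary genes had a median of 0.083 and no call, and their mean level per array, relative to the mean of all arrays, spread from -0.90 to 1.15 without ketamine and from -0.75 to 0.98 with it.

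By the brightest probe of each gene, the inflammation lists lay below the background median without a single call. In acute inflammation, 14 of 15 genes were lower with ketamine, with a median of -0.48, and the remaining probe, of CXCL1, was saturated on all 16 arrays and gives no measure of that gene. IL6, the pyrogenic interleukin, differed by -1.01 ± 0.49 (SE), the neutrophil chemokine CXCL8 by -1.22, the acute-phase protein SAA3 by -1.06 and TNF by -0.84. The median was 0.08 in normoxia and -0.99 in hypoxia, and the pooled median was -0.25 without HC4 and -0.74 without HC5. The mean level of the list per array ran from -1.01 to 2.39 without ketamine and from -0.86 to 0.79 with it, and the 2 highest arrays were HC4 at 2.39 and HC2 at 1.42. Among 9 interferon-linked genes, 7 were lower and the median was -0.80, with the interferon-induced ISG15 at -1.17 ± 0.64 (SE), MX1 at -0.81, MX2 at -0.96 and the chemokine CXCL10 at -1.38. Without HK1 that median was -0.42, and by oxygen level it was -0.185 in normoxia and -1.01 in hypoxia. The Toll-like receptor pathway had a median of -0.17, 9 of 12 genes being lower, and without HK3 the median was -0.07. By oxygen level it was 0.15 in normoxia and -0.39 in hypoxia.

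A list of 14 genes, most of them of inflammation, was taken from the study's PCR work, which was done on these fetuses, so that its direction is not independent evidence. Its tested genes are all counted in the acute inflammation, interferon or Toll-like receptor lists too. The directions of those lists are therefore not separate from its own. On the arrays 10 of the 14 were tested, of which 9 were below 0 and none was called in the pooled fit. The pooled values average unlike oxygen levels, with a list median of 0.195 in normoxia and -0.994 in hypoxia. Between HK and HC, CD14, NFKBIA, PTGS2, PTX3, TLR2 and TNF passed an unadjusted limma p of 0.05. None of the 10 did so between NK and NC. CD14, the co-receptor for bacterial lipopolysaccharide, ran from -3.46 to -0.18 without ketamine (median -2.16) and from -3.61 to -1.68 with it (median -2.67), a difference of -0.76 ± 0.41 (SE; limma p = 0.088, exact permutation p = 0.113). TLR2 differed by -0.38 ± 0.24, TLR4 by -0.21 ± 0.22, NFKBIA, the inhibitor of NF-κB, by -0.39 ± 0.27, IL1B by -0.43 ± 0.30 and PTX3 by -0.54 ± 0.53 (SE). For PTGS2 the bright probe gave -0.43 ± 0.43, without the call of the dim probe. MYD88, the adaptor of the Toll-like receptors, differed by 0.12 ± 0.13. Leaving out 1 array brought CD14 to a call without HC5 or NK4 (-0.96 to -0.91), NFKBIA without HC5 (-0.53) and TNF without HK2 (-1.05).

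Markers of other cell types were set beside these values, and their part in the results was not tested. Of 25 microglia and macrophage genes listed 11 were tested, 9 of them lower with no call and a median of -0.20, which became 0.02 without HC2. These genes include CD14 (-0.76), also in the PCR and Toll-like receptor lists, so their direction is not separate from those lists. Their median was 0.16 in normoxia and -0.60 in hypoxia. Their mean level per array ran from -0.69 to 1.88 without ketamine and from -0.60 to 0.44 with it, the array at 1.88 being HC2. The 5 astrocyte genes had a median of -0.027, glial fibrillary acidic protein (GFAP) differing by -0.07 and the water channel AQP4, saturated on 14 arrays, by 0.04. No gene of the oligodendrocyte list was tested. The 1 neuronal marker, the neurofilament NEFH, differed by -0.33 and the 1 choroid plexus marker, transthyretin (TTR), by -0.04. The 3 genes of other leukocytes had a median of -0.15, which was 0.19 without HK1 and -0.30 without HK2. The 3 genes listed under blood had a median of 0.02, with β-globin (HBB) at 0.02. Cytoglobin (CYGB), listed with them, was called at 0.22, but it does not by itself mark blood. The 2 smooth muscle genes had a median of -0.14.

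Of 17 endothelial and tight junction genes, EDNRB was the only one called. Its partners in the endothelin system, the ligand EDN1 and the type A receptor EDNRA, differed by -0.27 and 0.20, and the tight junction protein occludin (OCLN) by 0.48 ± 0.23 (SE) without a call. Of 8 metalloproteinases and inhibitors, MMP13 and MMP14 were called higher on dim probes, and a second MMP14 probe, also dim, gave -0.18. The bright members MMP2, TIMP1, TIMP2 and TIMP3 differed by 0.14, -0.09, 0.02 and -0.24. None of 8 collagen and matrix genes was called (median 0.03).

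The 14 ribosomal protein genes were above 0, with differences from 0.008 to 0.148, a median of 0.062 and no call, against 57.9% of probes above 0 overall. Of these probes 7 were saturated on at least 1 array and 4 of them on all 16, where a difference does not measure the RNA, and the 7 never saturated had a median of 0.044. Their median ran from 0.00625 to 0.11 over the alternatives other than leaving out an array, the scaling alternatives included. The 4 mitochondrial genes (SDHD, COX5A, ATP5MC1 and the regulator PPARGC1A) were also above 0, from 0.065 to 0.192, although ATP5MC1 was saturated on 12 arrays. In the metal and solute transporters, 13 genes had a median of 0.04 (-0.05 for the 10 never saturated), with CP called lower and SLC2A2 at 1.07 without a call. Of 4 surfactant genes SFTPC was called lower and SFTPD higher. No gene was called among the tested GABA and other transmitter receptors (5), neurotrophin genes (2), interleukin receptors (11), histocompatibility genes (3), complement (5), targets of hypoxia-inducible factor (8), glucocorticoid response (8), heat shock (7), apoptosis (10), drug metabolism (7) or insulin-like growth factor axis (12). Their medians lay between -0.23 and 0.10.

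**Figure D5:**
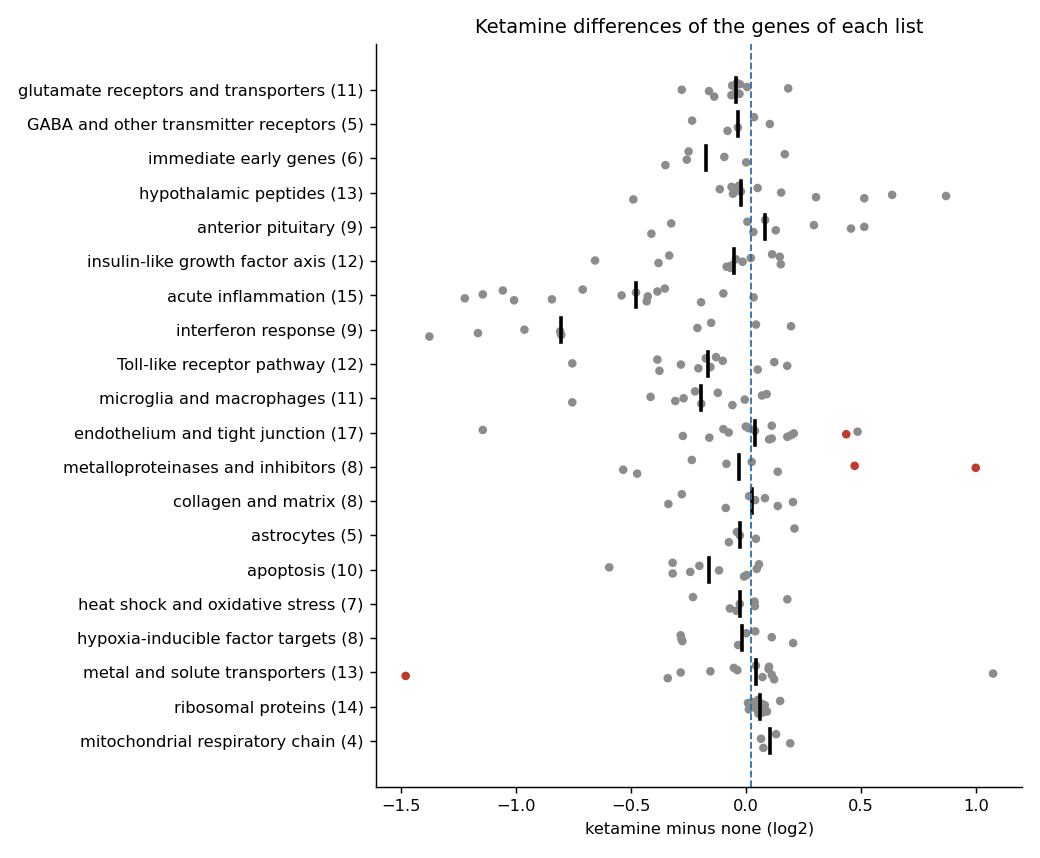
Ketamine minus none (log2) for each gene of 20 lists, with the number of tested genes in brackets. Points are genes, red where called, black bars list medians and the dashed line the median of all tested probes at 0.020. The interferon and acute inflammation medians, at -0.80 and -0.48, lie farthest to the left, and their genes are gray.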

How the data were processed

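Total RNA of 16 fetal hypothalami was labeled with a single dye (cyanine 3) for Agilent arrays of sheep probes. The deposited scanner files hold background-subtracted intensity (processed signal) from Feature Extraction 10.1.1.1 per the file headers, with 15744 spots. The deposited value table holds log2 values, whose column medians were nearly equal and whose normalization is not given in the sources used here. From the processed signal, 536 control spots and outlier spots (0.0801%) were left out, log2 was taken, the array's 75th percentile subtracted and spots of a probe averaged, after which 12250 of 15008 probes passed the filter (detected above background on 3 or more arrays). The fit was limma 3.58.1 in R 4.3.3 with ketamine, hypoxia and slide as terms, two-sided, with Benjamini-Hochberg adjustment. The fit was tested on simulated data. The study's threshold is an unadjusted p of 0.05. Groups came from the sample titles. Slide and scan cannot be told apart.

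Names came from RefSeq accessions (726 of 750 matched, assembly ARS-UI_Ramb_v3.0) and the array design, and 89.0% of probes have none. The genes named are the 12 with the largest rise and the 12 with the largest fall among called named probes, together with those of the PCR panel. Members and lists were chosen with earlier results of these data known. Alternatives were other slide terms, normalizations, filters, weights, variance models, single slides and leaving out each array. The number of arrays limits the precision. The values of 1 listed gene are not reported here.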

Additional observations from a re-analysis of the deposited data

Results flagged for a closer look

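The following values stood apart from the other arrays of their arm (a gap test at the 95% level, which chance passes in about 1 of 20 arms). Among the arrays without ketamine, PTGER1 was lowest in NC1 at -7.93, SLC7A5 lowest in HC4 at -3.98, the MYOD1 probe called lower highest in NC1 at -3.20 and SFTPC lowest in HC2 at 0.89. Among the ketamine arrays, PROACROSIN was lowest in NK3 at -7.33 and TNF highest in HK2 at -3.17.

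The ketamine difference in hypoxia minus that in normoxia was -0.91 for EIF4GI, -0.59 for SLC25A37, -0.47 for ACSS2, -1.70 for the bright PTGS2 probe, -1.02 for TLR2 and -1.96 for TNF, each at an unadjusted limma p under 0.05 for the difference of differences. None of the 6 passed adjustment (adjusted p of 0.966), and 510 of the 12250 probes reached that threshold (4.16%).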

How the results depend on the processing

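No probe passed adjustment under any of the 30 alternatives, by limma in each. The unadjusted count of 389 became 195 with slide 1 alone and 679 with slide 2 alone. Without single arrays it ran from 228 to 551, the largest losses being without HK4 (228) and HK3 (249). The share of calls that were higher, 73%, became 63.6% on slide 1 alone, 55.1% on slide 2 alone, 62.6% with the replicate number as a block, 65.3% with quantile normalization and 62.0% with median subtraction, and ran from 59.2% to 77.1% without single arrays, the lowest value being without NC3. The hypoxia count of 1743 became 913 on slide 2 alone, and ran from 1375 to 2052 without single arrays. The cause of these shifts was not tested. Of the 389 calls, 238 remained called with the same sign in the deposited value table, 317 with the median subtracted, 73 on slide 1 alone and 149 on slide 2 alone.

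None of the 24 named calls changed sign under any alternative, and 2 of the 389 calls did so on slide 1 alone. MYD88, which was not called, became -0.0286 on slide 2 alone. With group removed, 15 of 21 pairs of arrays sharing a replicate number correlated above 0.1 (-0.06 to 0.347). With slide removed as well, none did (-0.217 to 0.091). Arrays sharing a number always shared a slide, so these values cannot show whether the numbers pair fetuses. With the replicate number as a block in place of slide, 543 probes were called, 5 of the 24 named calls were lost, and CD14, NFKBIA and TLR2 became called. The differences of the 13 dim named probes came to a median of 0.241 of their value with normexp correction (offset 50) and quantile normalization and of 0.141 in the deposited table, and those of the 11 brighter probes to 0.666 and 0.528. The cause was not tested.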
